A study of Mus musculus with 10 samples.

Results

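Canonical WNT signalling genes were read in sorted fractions of mouse embryonic stem (ES) cells. The set holds 10 genes picked by name: the ligand gene Wnt8a, the secreted inhibitor gene Notum, the signal transducer gene Ctnnb1, the 4 TCF/LEF transcription factor genes Tcf7, Lef1, Tcf7l1 and Tcf7l2, and the feedback or target genes Axin2, Sp5 and Nkd1. Each symbol matched exactly 1 row, so that 10 of the 30339 symbols of the table are described. All 10 were among the 13595 rows that reached 1 FPKM (fragments per kilobase of transcript, normalised to sequencing depth) in at least 1 fraction.

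The cells were of the E14Tg2a.4 line. In one reporter line, fluorescent proteins were knocked in at 2 naive pluripotency genes, Esrrb and Tbx3. It was sorted into cells negative for both (here double-negative), cells positive for Esrrb only (single-positive) and cells positive for both (double-positive). A second line carried a piggyBac transgene under part of the Zscan4c promoter, not a tag at the gene itself, and was sorted into Zscan4c-Negative and Zscan4c-Positive cells. All 5 fractions thus share the parent line and differ in reporter and gate. The sources used here do not give culture medium, treatment or the number of clones. The labels list 10 libraries, 2 per fraction, collected on different days, but the deposited table holds 1 value per gene and fraction. No difference below therefore has an SD, an interval or a p-value, and the depth behind each value is unknown.

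In the canonical pathway, a WNT ligand binds Frizzled and LRP receptors, and this keeps a destruction complex built on AXIN and APC from marking beta-catenin, the product of Ctnnb1, for degradation. Beta-catenin then enters the nucleus and binds TCF/LEF factors at target genes, several of which encode inhibitors that feed back on the pathway. In mouse ES cells TCF7L1 is known as a repressor of naive pluripotency genes, Esrrb among them, and TCF7 and LEF1 are better known as activators.

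The fractions differed in a few of these genes and hardly in the transducer. Double-negative cells had the highest Wnt8a, Tcf7, Lef1 and Nkd1 and the lowest Notum, Tcf7l1, Sp5 and Ctnnb1 among the 5 fractions. Single-positive and double-positive cells had almost no Wnt8a and the highest Notum. Zscan4-positive cells had the highest Axin2, together with the lowest Lef1 and Tcf7.

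**Figure D1:**
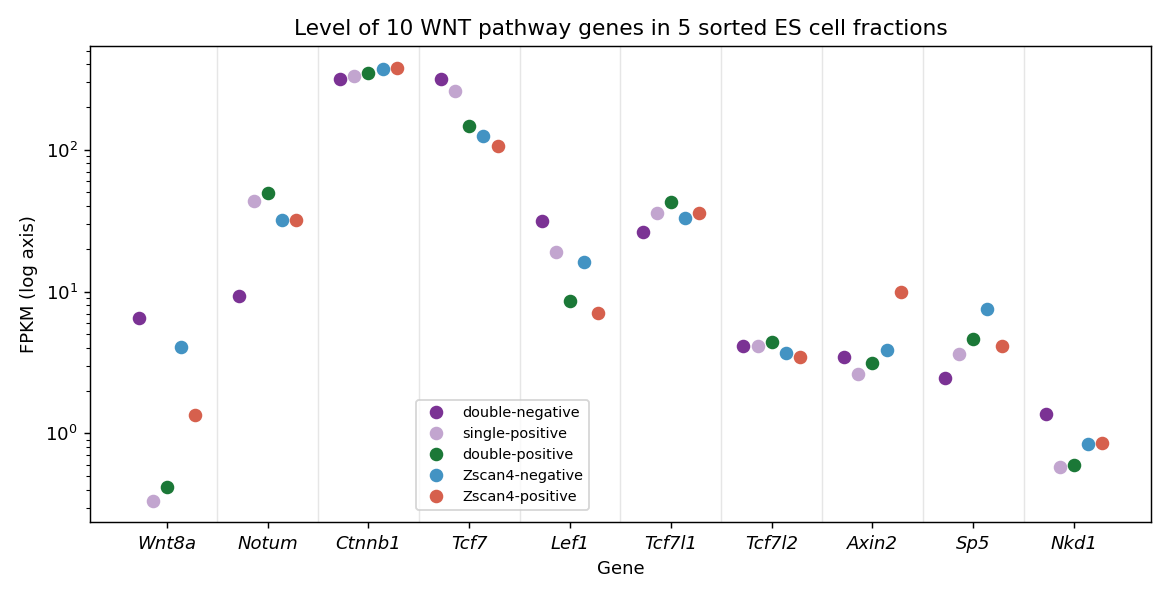
Each point is the deposited FPKM of 1 gene in 1 sorted fraction, on a log axis; there is 1 value per fraction, so no error bar. Wnt8a spans 0.336 to 6.49 FPKM and Notum 9.34 to 49.7, whereas Ctnnb1 stays between 317 and 379.

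The gates and the cell type were checked first. Esrrb was at 43.3, 177 and 243 FPKM and Tbx3 at 0.638, 1.75 and 12.6 FPKM for double-negative, single-positive and double-positive cells. Zscan4c was at 0.255 FPKM for Zscan4-negative and 120 FPKM for Zscan4-positive cells. The ES cell marker gene Pou5f1 was between 1987 and 2762 FPKM in all 5 fractions, and Sox2 between 209 for double-negative and 437 for double-positive cells. This Sox2 difference, 1.06 in log2(FPKM + 1), passed the 2-fold rule used below, as did 3.81% of all rows in that direction. Sox2 was the 1 of 5 ES cell markers to pass it across these 2 fractions. Markers of other cell types set the double-negative and single-positive columns apart. A list of 13 fibroblast markers summed to 1771 and 1259 FPKM there, against 29.9 for double-positive, 22.9 for Zscan4-negative and 35.2 for Zscan4-positive cells. A list of 13 T cell markers summed to 344 and 261 FPKM, against 37.2, 28.0 and 23.5. No T cell marker was at 0 in any fraction, and of the fibroblast markers only Lum was at 0, in both Zscan4 fractions. The fibroblast list was not high throughout in double-negative and single-positive cells. Dcn was at 0.217 and 0.0325 FPKM there and Lum at 0.0145 and 0.0320, and Lum was highest in double-positive cells, at 0.144. Dcn and Lum are not among the 11 fibroblast markers of the next ratio. The single-positive level, as a ratio to the double-negative level, had a median of 0.710 over 11 fibroblast markers (0.683 to 0.736) and of 0.739 over 12 T cell markers (0.656 to 1.15). A list of 5 primitive streak and mesoderm markers, fates that WNT signals can induce, summed to between 1.68 and 2.87 FPKM in every fraction. In such bulk RNA, fewer cells of a type and less RNA per cell cannot be told apart.

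Wnt8a encodes a secreted WNT ligand. It lies on chromosome 18 (mm10, 34542328 to 34548061, plus strand). Its level was 6.49 FPKM for double-negative, 0.336 for single-positive, 0.417 for double-positive, 4.03 for Zscan4-negative and 1.34 for Zscan4-positive cells. Double-negative and Zscan4-negative cells were thus the high fractions, and single-positive and double-positive cells the low ones. Esrrb was at 203 FPKM for Zscan4-negative and 177 for single-positive cells, where Wnt8a was at 4.03 and 0.336. These 2 fractions differ in reporter line and gate, and a link between Wnt8a and the level of Esrrb was not tested. The level in double-negative cells was 19.3 times that in single-positive and 15.6 times that in double-positive cells. On the scale used for all calls, the difference of log2(FPKM + 1), these were -2.49 and -2.40. In the Zscan4 line the negative fraction stood at 3.01 times the positive fraction, a difference of -1.10. The values of 0.336 and 0.417 FPKM are low, and how precisely they were measured is unknown.

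Wnt8a was 1 of 5 WNT ligand genes, of 19 in the table, that reached 1 FPKM in any fraction. Wnt7b ran the other way: it was at 0.252 FPKM for double-negative, 2.45 for single-positive, 3.39 for double-positive, 4.01 for Zscan4-negative and 2.02 for Zscan4-positive cells. Wnt10b was at 1.21 and 1.04 FPKM for double-negative and single-positive cells and at no more than 0.0597 FPKM in the other fractions. The summed fibroblast and T cell markers showed the same split. Wnt5a was at 2.57 FPKM for Zscan4-negative and 0.484 for Zscan4-positive cells. Wnt5a, Wnt7b and Wnt10b did not reach 5 FPKM and are named here because the call counts of the ligands below rest on them.

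Notum encodes a secreted carboxylesterase that inactivates WNT proteins by removing their lipid, and it is itself induced by the pathway in several tissues. It lies on chromosome 11 (mm10, 120653789 to 120660837, minus strand). Notum was at 9.34 FPKM for double-negative, 43.8 for single-positive, 49.7 for double-positive, 31.9 for Zscan4-negative and 31.8 for Zscan4-positive cells. The double-negative fraction alone was low, and the others lay within 31.8 to 49.7 FPKM. Single-positive cells had 4.69 times and double-positive cells 5.32 times the double-negative level, differences of 2.12 and 2.29 (log2). The Zscan4 fractions hardly differed in Notum, so the 2 genes with the largest range over fractions, Wnt8a and Notum, parted in that sort. The GENCODE M21 annotation places an antisense gene, Notumos, at this locus. The sources used here do not say whether the authors counted by strand, so reads of both could not be separated.

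Ctnnb1, the gene of beta-catenin, is on chromosome 9 (mm10, 120933400 to 120960507, plus strand). Its level was 317 FPKM for double-negative, 331 for single-positive, 345 for double-positive, 371 for Zscan4-negative and 379 for Zscan4-positive cells. It ranked 153rd to 175th among the 13595 compared rows. The whole range over fractions was 0.26 (log2), the smallest of the 10 genes. Beta-catenin activity is set largely by protein stability, which RNA levels do not show.

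The TCF/LEF genes differed from one another. Tcf7, on chromosome 11 (mm10, 52252285 to 52283014, minus strand), was at 314 FPKM for double-negative, 260 for single-positive, 146 for double-positive, 124 for Zscan4-negative and 106 for Zscan4-positive cells. Lef1, on chromosome 3 (mm10, 131110297 to 131224357, plus strand), gave 31.2, 19.0, 8.53, 16.0 and 7.07 FPKM over these fractions. Both were highest in double-negative and lowest in Zscan4-positive cells. Tcf7l1, on chromosome 6 (mm10, 72626371 to 72789045, minus strand), was at 26.4, 36.0, 42.7, 33.0 and 35.6 FPKM, lowest in double-negative and highest in double-positive cells. Tcf7l2, on chromosome 19 (mm10, 55741810 to 55933655, plus strand), gave 4.15, 4.15, 4.40, 3.67 and 3.43 FPKM, with a range of only 0.28 (log2).

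In every fraction Tcf7 was the most abundant of the 4 TCF/LEF genes and Tcf7l2 the least abundant. From double-negative through single-positive and double-positive to Zscan4-negative and Zscan4-positive cells, Tcf7 made up 83.5%, 81.5%, 72.4%, 70.2% and 69.7% of their summed FPKM. Tcf7l1 made up 7.03%, 11.3%, 21.2%, 18.7% and 23.4% in the same order. The summed level of Tcf7 and Lef1 was 13.1 times that of Tcf7l1 for double-negative, 7.75 times for single-positive and 3.62 times for double-positive cells. The figures were 4.24 times for Zscan4-negative and 3.17 times for Zscan4-positive cells. The mix of factors known mainly as activators and as repressors thus differed between double-negative and double-positive cells, through lower Tcf7 and Lef1 and higher Tcf7l1. These ratios are taken within a column, so they do not depend on how the columns are scaled.

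**Figure D2:**
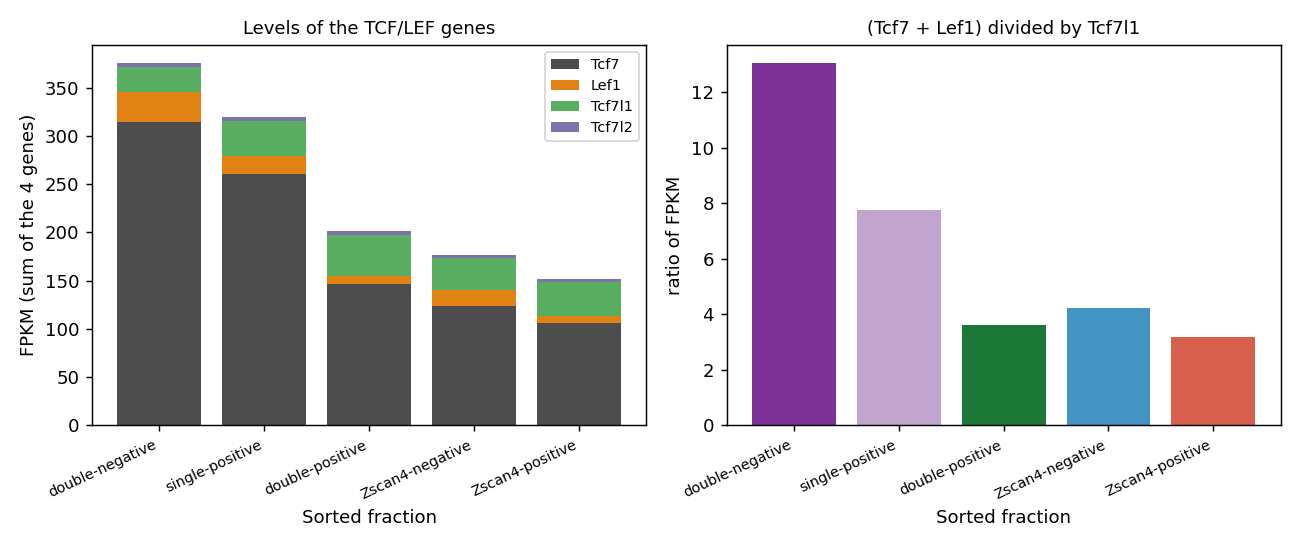
Left, stacked FPKM of the 4 TCF/LEF genes in each sorted fraction; right, the summed FPKM of Tcf7 and Lef1 divided by that of Tcf7l1. The sum goes from 376 FPKM for double-negative to 152 for Zscan4-positive cells, and the ratio from 13.1 to 3.17.

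Tcf7 and Lef1 are also abundant in T cells, whose markers, as a sum but not each of them, were high in the double-negative and single-positive columns. Single-positive cells had 0.829 times the double-negative level of Tcf7 and 0.608 times that of Lef1, beside the marker medians of 0.739 and 0.710. Double-negative cells exceeded double-positive cells by 168 FPKM of Tcf7, and single-positive cells exceeded them by 0.680 times that amount. For Lef1 the excess was 22.7 FPKM and the corresponding ratio 0.460. The part of the other cell types' RNA in the Tcf7 and Lef1 differences within the Esrrb and Tbx3 line was not tested. In the Zscan4 fractions Tcf7 stood at 124 and 106 FPKM while the 13 T cell markers together were at 28.0 and 23.5. Of these Lck, a T cell kinase gene, was at 14.5 and 9.93 FPKM and Cd2 at 2.51 and 1.34, lower in Zscan4-positive cells like Tcf7, and Cd3d at 0.442 and 0.906. A further row, AK202663, is listed at the same locus as Tcf7, at 135, 97.5, 33.2, 13.1 and 26.0 FPKM from double-negative to Zscan4-positive cells, and how reads were divided between these rows is not given. The row BC051212 shares the Lef1 locus, at 3.04 FPKM for double-negative cells and less in the others.

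**Figure D3:**
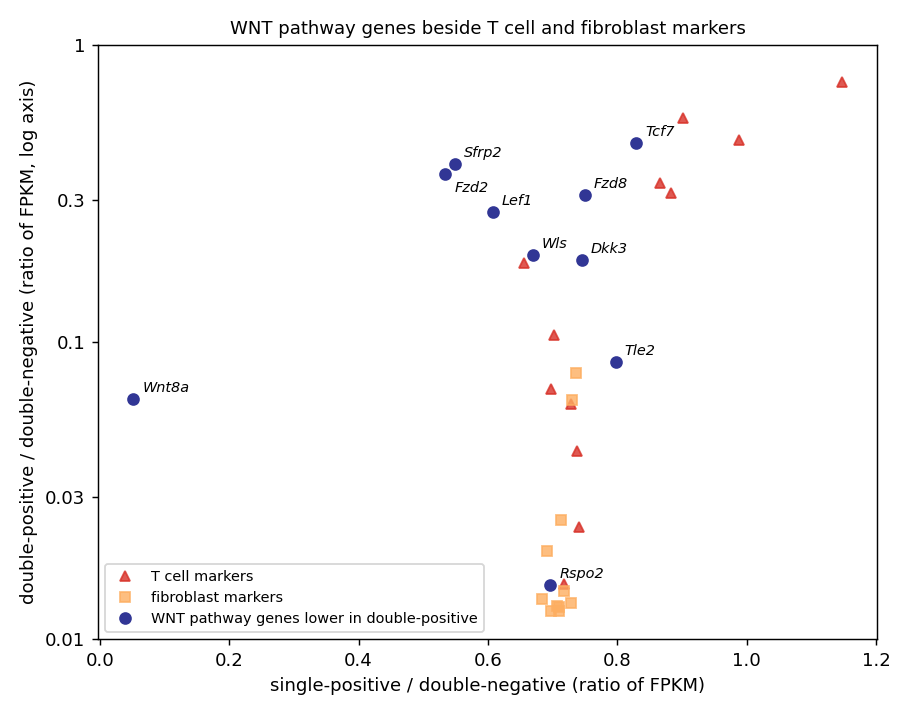
Each point is 1 gene, placed by its single-positive (x axis) and double-positive (y axis, log) level as a ratio to double-negative cells. T cell markers (triangles) and fibroblast markers (squares) with at least 1 FPKM for double-negative cells are shown beside the 10 WNT pathway genes (circles) called lower in double-positive cells with at least 5 FPKM; Rspo2, at 0.696 on the x axis, lies among the markers, and Wnt8a, at 0.0517, far from them.

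Axin2 encodes a scaffold of the destruction complex and is a widely used readout of WNT activity. It lies on chromosome 11 (mm10, 108920349 to 108950781, plus strand). Axin2 was at 3.47 FPKM for double-negative, 2.64 for single-positive, 3.11 for double-positive, 3.89 for Zscan4-negative and 9.96 for Zscan4-positive cells. Zscan4-positive cells stood alone, at 2.56 times the Zscan4-negative level. Sp5 encodes a zinc-finger factor that is a direct WNT target in ES cells and embryos, and lies on chromosome 2 (mm10, 70474923 to 70477726, plus strand). Its levels were 2.45, 3.63, 4.62, 7.58 and 4.11 FPKM in the same order, highest in Zscan4-negative and lowest in double-negative cells. Nkd1 encodes a cytoplasmic inhibitor that binds Dishevelled and lies on chromosome 8 (mm10, 88521344 to 88594887, plus strand). It was at 1.36, 0.579, 0.602, 0.844 and 0.860 FPKM, near the level at which rows were compared at all.

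Axin2 and Sp5, both textbook targets, differed with opposite sign in the Zscan4 sort, by 1.17 and -0.75 (log2), and only the difference of Axin2 passed 2-fold. The 250 bases before their starts are shown for that reason, from RefSeq on GRCm38.p6, the assembly of mm10, both on the plus strand: chr2:70474673-70474922 for Sp5 and chr11:108920099-108920348 for Axin2. Capitals mark matches to either of 2 forms of the TCF/LEF motif, ATCAAAG and AACAAAG, searched on both strands.
Sp5: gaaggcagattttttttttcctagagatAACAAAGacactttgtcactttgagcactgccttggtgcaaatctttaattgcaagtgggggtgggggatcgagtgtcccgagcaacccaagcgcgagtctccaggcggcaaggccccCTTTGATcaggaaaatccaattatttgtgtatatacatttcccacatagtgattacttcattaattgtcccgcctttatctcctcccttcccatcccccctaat
Axin2: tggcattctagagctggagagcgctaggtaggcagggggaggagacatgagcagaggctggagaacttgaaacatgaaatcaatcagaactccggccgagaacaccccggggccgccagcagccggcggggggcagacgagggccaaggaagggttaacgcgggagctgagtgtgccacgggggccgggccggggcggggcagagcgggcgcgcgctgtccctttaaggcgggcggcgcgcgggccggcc

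The Sp5 window holds 2 matches that do not overlap, one beginning 222 bases and the other 104 bases before the start, and the Axin2 window holds none. A RefSeq window at the deposited start was found for 7 of the 10 genes (Lef1, Tcf7, Tcf7l1, Tcf7l2, Axin2, Sp5 and Ctnnb1), and Sp5 was the 1 with a match. Wnt8a was left out of this search, so its window was not examined. Of 32851 RefSeq windows of the same length, 8.06% hold at least 1 match. A match describes these letters only and does not show that a factor binds, and its absence says nothing about sites elsewhere.

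In the comparisons, a gene counts as higher or lower from a 2-fold difference on the log2(FPKM + 1) scale. The Esrrb step, which set single-positive against double-negative cells and asks what accompanies Esrrb while Tbx3 is off, held Notum as the 1 higher gene (2.12) and Wnt8a as the 1 lower gene (-2.49) of the 10. Of all compared rows 1.82% were higher and 1.43% lower. Lef1 differed by -0.69, Nkd1 by -0.58, Tcf7l1 by 0.43, Sp5 by 0.43, Axin2 by -0.30, Tcf7 by -0.27 and Ctnnb1 by 0.06, none past 2-fold, and Tcf7l2 was at 4.15 FPKM in both. The median was -0.14 over the 10 genes and -0.02 over all rows.

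In the Tbx3 step, double-positive against single-positive cells, Lef1 was the 1 lower gene of the 10 (-1.07) and none was higher, where 6.94% of all rows were lower and 0.346% higher. Tcf7 followed with -0.83, short of 2-fold. The other genes lay between 0.02 (Nkd1) and 0.28 (Sp5), so Wnt8a (0.09) and Notum (0.18), which differed most in the Esrrb step, hardly differed here. The summed T cell markers went from 261 to 37.2 FPKM and 7 of 13 were lower, alongside Lef1. The median was 0.08 over the 10 genes and 0.01 over all rows.

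Across both reporters, double-positive against double-negative cells, Notum was higher (2.29) and Wnt8a (-2.40), Lef1 (-1.76) and Tcf7 (-1.10) were lower. This is 1 of 10 higher and 3 of 10 lower, where 3.81% of all rows were higher and 12.2% lower. Short of 2-fold, Sp5 differed by 0.71, Tcf7l1 by 0.67 and Nkd1 by -0.56, while Axin2 (-0.12), Ctnnb1 (0.12) and Tcf7l2 (0.07) differed little. Of the T cell markers 8 of 13 and of the fibroblast markers 11 of 13 were lower too. This comparison shares its fractions with the Esrrb and Tbx3 steps and is no separate evidence.

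In the Zscan4 sort, Zscan4-positive against Zscan4-negative cells, Axin2 was higher (1.17) and Wnt8a (-1.10) and Lef1 (-1.08) were lower. This is 1 of 10 higher and 2 of 10 lower, where 3.46% of all rows were higher and 0.875% lower. Sp5 differed by -0.75 and Tcf7 by -0.23, and the other 5 genes by between -0.07 (Tcf7l2) and 0.11 (Tcf7l1). The summed T cell markers were at 28.0 and 23.5 FPKM in the 2 fractions and none passed 2-fold, while Thy1 was the 1 fibroblast marker that did, higher in Zscan4-positive cells. The part of T cell RNA in the Lef1 difference was not tested here either. Axin2, Lef1 and Wnt8a here, Lef1 in the Tbx3 step and Tcf7 across both reporters all lay within 1.07 to 1.17 (log2) of 0, close to the 2-fold line.

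**Figure D4:**
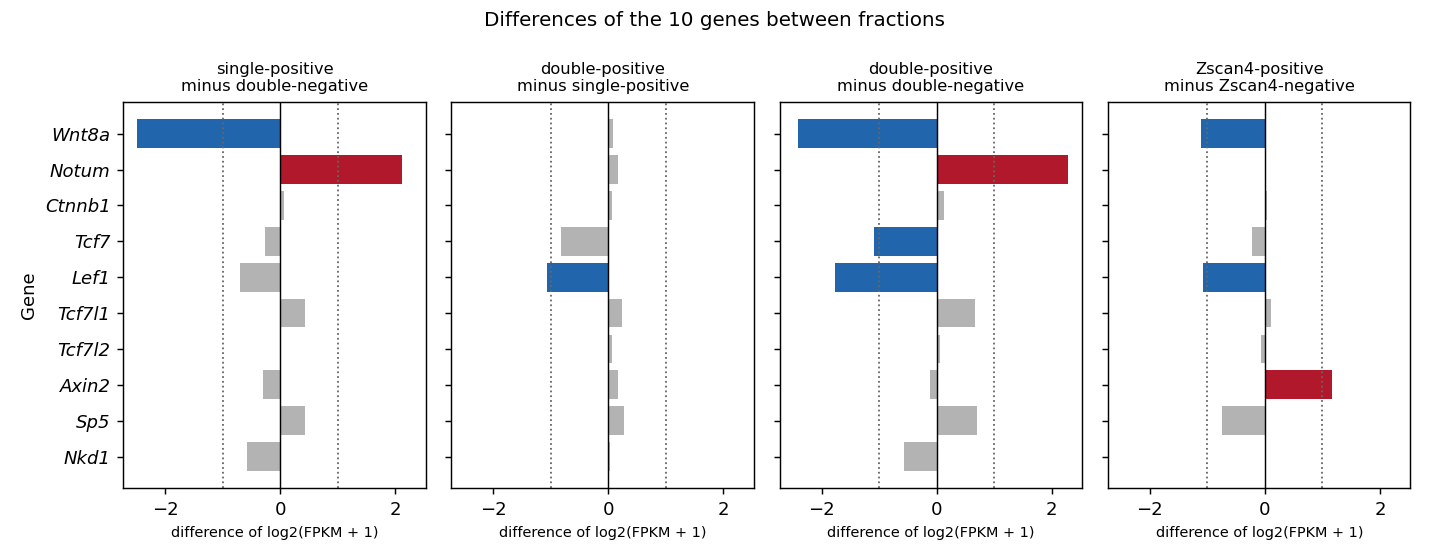
Bars are differences of log2(FPKM + 1) for the 10 genes in each comparison, red where at least 2-fold higher, blue where at least 2-fold lower and grey otherwise; dotted lines mark 2-fold. Wnt8a and Notum show the longest bars when single-positive or double-positive cells are set against double-negative cells, at -2.49 to 2.29.

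The wider pathway was read from a list of 95 further genes, of which 62 were compared. In the Esrrb step 2 were higher (Fzd5 and Wnt7b) and none lower, and in the Tbx3 step none was higher and 5 were lower (Tle2, Rspo2, Wls, Fzd1 and Dkk3). Across both reporters 3 were higher (Fzd5, Wnt7b and Sfrp1) and 9 lower, and in the Zscan4 sort 2 were higher (Wls and Sfrp5) and 1 lower (Wnt5a). Lower genes were 8.06% of the 62 in the Tbx3 step and 14.5% across both reporters, close to the 6.94% and 12.2% of all rows. Higher genes were 3.23% in the Esrrb step, 4.84% across both reporters and 3.23% in the Zscan4 sort, beside 1.82%, 3.81% and 3.46% of all rows. The counts of the list thus stayed near those of all rows. In the Tbx3 step 11 of 13 fibroblast and 7 of 13 T cell markers were lower as well. The medians of the 62 genes, in the order of the comparisons above, were -0.15, -0.01, -0.21 and 0.01, beside -0.02, 0.01, -0.02 and -0.01 over all rows.

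On the ligand and receptor side, the 5 compared ligand genes had 1 member higher and 1 lower in the Esrrb step (Wnt7b and Wnt8a), 1 higher and 2 lower across both reporters (Wnt7b, against Wnt10b and Wnt8a), and 2 lower in the Zscan4 sort (Wnt5a and Wnt8a). The shares of all rows were 1.82% higher and 1.43% lower, 3.81% and 12.2%, and 3.46% and 0.875% in these comparisons, and 5 genes are too few to set a share beside them. Of 16 compared receptor genes, Fzd5, a Frizzled gene, was at 12.2 FPKM for double-negative, 26.7 for single-positive, 34.2 for double-positive, 30.7 for Zscan4-negative and 25.9 for Zscan4-positive cells, low in double-negative cells only. Fzd2 (12.4, 6.60 and 4.55 FPKM) and Fzd8 (5.42, 4.06 and 1.69 FPKM) were highest in double-negative and lowest in double-positive cells of the 3 fractions given. Both were called lower across both reporters, as was Fzd1, below 5 FPKM. Single-positive levels were 0.534 (Fzd2), 0.750 (Fzd8) and 0.752 (Fzd1) times the double-negative level. The part of fibroblast and T cell RNA in these lower calls was not tested. Receptor calls were thus 1 higher in the Esrrb step, 1 lower in the Tbx3 step (Fzd1), 1 higher and 3 lower across both reporters and none in the Zscan4 sort, of 16 genes each time, and with the all-row shares given above such low counts set the receptors apart in no comparison.

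Wls, whose product carries WNT proteins to the cell surface, was at 24.5 FPKM for double-negative, 16.4 for single-positive, 4.81 for double-positive, 4.56 for Zscan4-negative and 14.3 for Zscan4-positive cells. It was thus lower in the Tbx3 step (-1.58) and higher in the Zscan4 sort (1.46), the largest positive difference there among the pathway genes with at least 5 FPKM. The single-positive level of Wls was 0.669 times the double-negative level. That is within the T cell marker range of 0.656 to 1.15 and below the fibroblast marker range of 0.683 to 0.736. The part of fibroblast and T cell RNA in the Wls differences was not tested. Porcn, the acyltransferase gene that acts before Wls, went from 36.7 FPKM for Zscan4-negative to 62.7 for Zscan4-positive cells (0.76), short of 2-fold.

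Among secreted factors, the R-spondin gene Rspo2, a WNT enhancer, was at 10.6 FPKM for double-negative and 7.41 for single-positive cells but at no more than 0.176 FPKM in the other fractions. Its single-positive level was 0.696 times the double-negative level, which lies within the range of both marker lists. Dkk3 (8.58, 6.40 and 1.62 FPKM) and the co-repressor gene Tle2 (9.52, 7.59 and 0.814 FPKM) had the same order over double-negative, single-positive and double-positive cells, with ratios of 0.745 and 0.798. The part of fibroblast and T cell RNA in these genes was not tested. Of the secreted Frizzled-related inhibitors, Sfrp1 was higher across both reporters (13.9 FPKM for double-positive against 5.61 for double-negative cells) and Sfrp2 lower (14.6 against 36.7 FPKM).

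**Figure D5:**
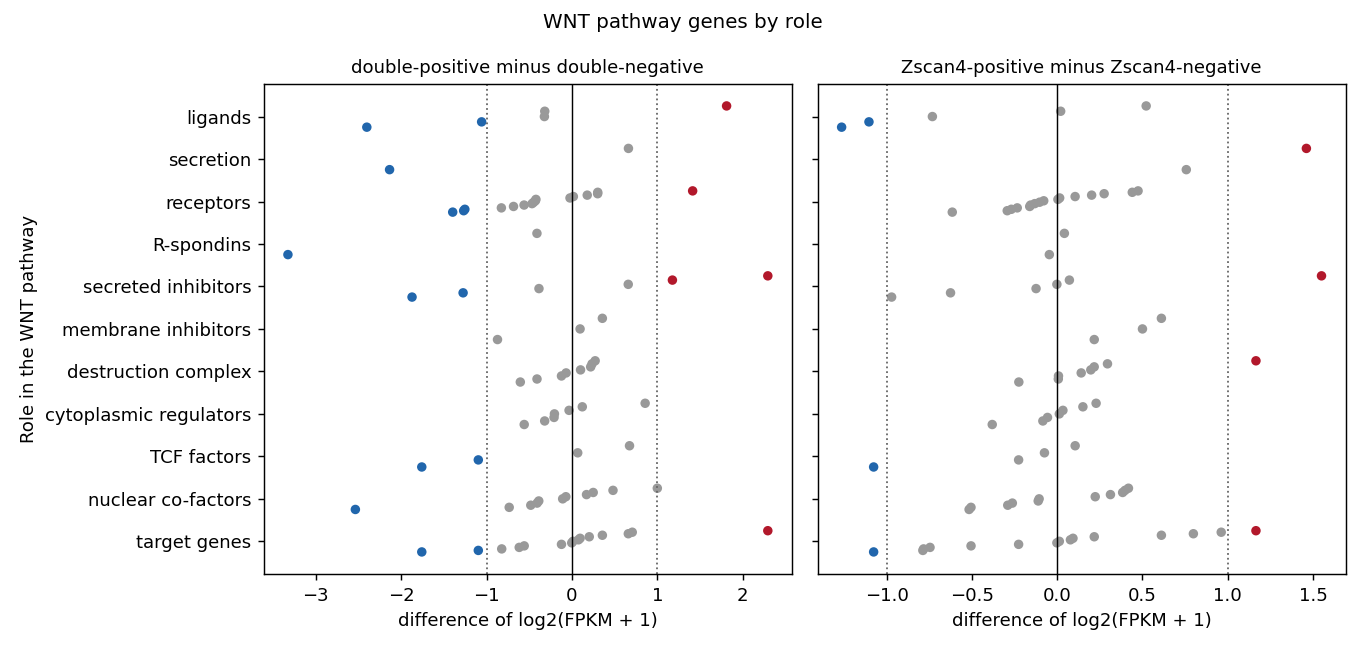
Each point is 1 compared gene of the pathway list, by role, with its difference of log2(FPKM + 1) across both reporters (left) and in the Zscan4 sort (right); genes with more than 1 role appear in each. Rspo2, at -3.33 on the left, is the most negative and Notum, at 2.29, the most positive gene.

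Of 8 compared destruction complex genes, including Apc, Axin1 and Gsk3b, Axin2 in the Zscan4 sort was the 1 call in any comparison, and of 7 cytoplasmic regulators none passed 2-fold. Between 0.346% and 12.2% of all rows were called per direction and comparison, so counts of 0 or 1 in lists this short do not set them apart from other rows. Dvl2, a Dishevelled gene, was at 40.9 FPKM for double-negative and 74.9 for double-positive cells (0.86), and Amer1, whose product binds APC, at 5.74 and 3.43 FPKM (-0.60). Target genes other than the set of 10 had 9 compared members, among them Ccnd1, Myc and Znrf3, and none of the 9 passed 2-fold in any of the 4 comparisons, a count that the same shares of all rows do not set apart either. It depends on the pseudocount: with 0.1 in place of 1, 4 of the 9 passed, namely Sp8 in all comparisons but the Tbx3 step, Cdx1 across both reporters, and Tnfrsf19 and Ascl2 in the Zscan4 sort. Their medians were -0.18, 0.10, 0.08 and 0.09. Tnfrsf19 was at 6.81 FPKM for Zscan4-positive against 3.01 for Zscan4-negative cells and Apcdd1 at 4.98 against 2.91, on the side of Axin2, while Myc was at 25.4 against 44.5. None of these 3 differences reached 2-fold on the scale used.

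A list of 6 naive genes known to be repressed by TCF7L1 was set beside Tcf7l1 itself. All 6 (Esrrb, Nanog, Klf2, Tfcp2l1, Tbx3 and Nr0b1) were higher across both reporters, with a median of 2.43, beside 3.81% of all rows, where Tcf7l1 was at 42.7 FPKM for double-positive and 26.4 for double-negative cells. Nr0b1, for example, was at 32.0 FPKM for double-negative, 109 for single-positive and 174 for double-positive cells. In the Esrrb step 4 of the 6 were higher (Tfcp2l1, Esrrb, Nanog and Nr0b1), beside 1.82% of all rows. In the Tbx3 step it was 1 of 6, Tbx3 itself, beside 0.346%, and in the Zscan4 sort 2 of 6 (Tbx3 and Nanog), beside 3.46%. Esrrb and Tbx3 are the sorted genes of the first line, so their calls in its 3 comparisons follow from the gates. The Tbx3 call in the Zscan4 sort does not, since that line was gated on the Zscan4c transgene. The other 4, which are naive genes as well, had a median of 2.33 across both reporters. Of these 4, 4 were higher across both reporters, 3 in the Esrrb step, 0 in the Tbx3 step and 1 in the Zscan4 sort.

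For each gene that ranged over at least 1 (log2), the profile over the 5 fractions was matched to 9755 coding or long noncoding rows with at least 5 FPKM, by the Euclidean distance of centred log2(FPKM + 1). Among the rows closest to Wnt8a were Peg10 (distance 0.45) and Car2 (0.47). Peg10 was at 98.5 FPKM for double-negative, 25.8 for single-positive, 23.2 for double-positive, 73.1 for Zscan4-negative and 37.6 for Zscan4-positive cells. Notum was matched most closely by Parvb (0.23), St6galnac2 (0.37) and Hmces (0.39), and Dok2 (0.19) and Trp53i11 (0.29) were among the rows closest to Lef1. The neighbours of Tcf7 were Anxa4 (0.08), Gas5 (0.10) and Zfp36l2 (0.12), all highest in double-negative and lowest in Zscan4-positive cells, like Tcf7. For Axin2 they were Rimklb (0.12), Plk2 (0.16) and Prex2 (0.20), all highest in Zscan4-positive cells, and for Sp5 C430002E04Rik (0.32), Ccdc3 (0.33) and Rnf31 (0.38). With 5 values per gene, such closeness is a description only.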

How the data were processed

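RNA of 5 sorted fractions was sequenced, with 2 libraries each. The submitters' processing notes name Cuffdiff 2.2.1, Cufflinks, TopHat2 2.0.14 and bcl2fastq 1.8.4, and build mm10. The authors' deposited values are FPKM, per the file headers, with 1 value for each row and fraction. The sources used here do not give the annotation, the strand setting or the way of merging libraries. Depth is unknown. Coordinates are those of the deposited loci, written from 1, with strand from GENCODE M21. Overlapping rows share 1 locus.

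Differences are of log2(FPKM + 1) over the 13595 of 32361 rows that reached 1 FPKM anywhere, which understates those of low genes. No test was possible. The 10 genes and all lists were chosen with earlier results of these data known. Pathway genes were named where past 2-fold with at least 5 FPKM, and others are said to be outside that rule or are given as examples, chosen after their values were seen. The 2-fold rule and its counts were run on planted fold changes without noise, which checks the code only. Low genes and the other steps were not covered. Python 3.11.15, pandas 2.3.3, numpy 2.4.6 and matplotlib 3.10.9 were used. Alternatives covered the pseudocount, filter, scaling, size rule and summed rows. Protein sequences were not used here. Some rows with profiles close to those of the 10 genes are not reported here.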

Additional observations from a re-analysis of the deposited data

How the results depend on the processing

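No paired analysis was possible because the deposited table holds 1 value per fraction, and for the same reason neither leaving out a replicate nor DESeq2 could be run. The 10 genes kept the same calls without a filter, with rows of 1 symbol summed and under both scalings of the columns. With a pseudocount of 0.1 in place of 1, Nkd1 also passed 2-fold, at -1.11 in the Esrrb step and -1.06 across both reporters, and Wnt8a came to -3.92 and -3.67 there. At 1.5-fold in place of 2-fold, the Tbx3 step held 2 of the 10 genes in place of 1 (Tcf7 added), the Esrrb step 3 in place of 2 (Lef1), both reporters 6 in place of 4 (Sp5 and Tcf7l1, both higher) and the Zscan4 sort 4 in place of 3 (Sp5). Over the whole pathway list a pseudocount of 0.1 gave 9 calls in place of 4 in the Esrrb step and 11 in place of 6 in the Zscan4 sort, since low genes then pass. Over all rows it gave 428 higher and 469 lower in the Esrrb step (247 and 195), 153 and 1460 in the Tbx3 step (47 and 943) and 835 and 280 in the Zscan4 sort (470 and 119). Equal totals moved the median of all rows by -0.11 across both reporters. Values under 1 FPKM, as of Nkd1 in 4 fractions and Wnt8a in 2, have unknown precision.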

Other observations

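The double-positive and the Zscan4-negative fractions come from different reporter lines, and no sort separates them. Wnt8a was at 0.417 FPKM in the former and 4.03 in the latter, a difference of -1.83 (log2), the largest of the 10 genes. Lef1 differed by -0.84, Notum by 0.62 and Sp5 by -0.61 in the same direction of subtraction, and the other 6 genes by between -0.25 and 0.36. The reporter line and the gate cannot be told apart here.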
